A study of Mus musculus with 15 samples.

Results

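Fc receptors are the proteins through which a macrophage reads antibody. The 6 genes described here are Fcgr1, Fcgr3, Fcgr4, Fcgr2b, Fcer1g and Fcgrt, chosen by name as rows of the deposited count tables, each of which lists 54390 genes. All 6 passed the filter on low counts, which left 14237 tested genes. RNA was sequenced from 15 libraries of BV2, a mouse microglial line immortalised with oncogenes. WT cells gave 4 non-foamy and 4 foamy libraries, and Trem2-/- cells gave 3 non-foamy and 4 foamy libraries. Foamy cells had been given 20 µg/mL of soluble cholesterol overnight, and non-foamy cells had media alone. Per the methods, Trem2-/- cells came from a Cas9-expressing clone of BV2 that received a guide RNA against Trem2, passed puromycin selection and was cloned again by limiting dilution, so loss of Trem2 and what else sets a clone apart from its parent cannot be told apart here. How many clones were sequenced, whether WT cells carried Cas9 and whether replicates were separate cultures are not given in the sources used here, and the p-values measure the spread between these libraries only.

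Fcgr1, Fcgr3 and Fcgr4 encode the ligand-binding chains of the mouse activating receptors FcγRI, FcγRIII and FcγRIV. These chains reach the cell surface and signal with the common γ chain encoded by Fcer1g, whose ITAM motif is phosphorylated by Src-family kinases and then recruits Syk. Fcgr2b encodes FcγRIIB, the inhibitory receptor, which binds the same immune complexes and carries an ITIM motif that recruits the phosphatase SHIP1. Fcgrt encodes the heavy chain of FcRn, an MHC class I-like receptor that pairs with β2-microglobulin and binds IgG in acidic endosomes, sparing it from degradation. In microglia and macrophages the balance of activating to inhibitory receptors is known to set how strongly a cell responds to IgG-coated particles.

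In the GRCm38 annotation (GENCODE M21), 4 of the 6 genes lay close together on chromosome 1: Fcgr2b (chr1:170958617-170976547, minus strand), Fcgr4 (chr1:171018920-171029761, plus strand), Fcgr3 (chr1:171051174-171064935, minus strand) and Fcer1g (chr1:171229572-171234365, minus strand). Fcgr1 lay on chromosome 3 (chr3:96282909-96293969, minus strand) and Fcgrt on chromosome 7 (chr7:45092990-45103851, minus strand). Fcgr2b and Fcgr3 are close relatives, and their longest annotated coding sequences held an identical run of 129 bases. This run went from base 278 to 406 in Fcgr2b and from base 263 to 391 in Fcgr3. It spans 2 coding exons in each gene and is shown because a read from it fits both genes:

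Fcgr2b and Fcgr3 shared coding run: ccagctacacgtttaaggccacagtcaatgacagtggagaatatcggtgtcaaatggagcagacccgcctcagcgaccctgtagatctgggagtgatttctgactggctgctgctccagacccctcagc

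Of all 50-base stretches in the annotated transcripts, 166 were common to both genes, which is 9.58% of those of Fcgr3 and 2.92% of those of Fcgr2b. A further 4.03% of the Fcgr2b stretches occurred in genes outside the 6, and 2.68% of its exonic bases overlapped Gm38204 on the other strand, which had 0 to 3 reads in any library. How the authors' counting treated reads with several matches or on the other strand is not stated, so these parts of the Fcgr2b and Fcgr3 counts are uncertain. No 50-base stretch of Fcgr1, Fcgr4, Fcer1g or Fcgrt occurred in another gene.

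RefSeq promoters (GRCm38.p6, 250 bases before to 50 after the start) were found for all 6 genes, with 2 starts for Fcgr3. They are printed for the 3 receptors that moved together on chromosome 1 and for Fcgr1, which did not move with them. Capitals mark the core of the PU box, the site read by the myeloid factor PU.1 (GAGGAA, read on both strands, found in these windows as TTCCTC), and the γ-activated site of interferon-γ signalling (TTCNNNGAA). The 2 motifs share no base in these windows.

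Fcgr2b, chr1:170976022-170976321, minus strand: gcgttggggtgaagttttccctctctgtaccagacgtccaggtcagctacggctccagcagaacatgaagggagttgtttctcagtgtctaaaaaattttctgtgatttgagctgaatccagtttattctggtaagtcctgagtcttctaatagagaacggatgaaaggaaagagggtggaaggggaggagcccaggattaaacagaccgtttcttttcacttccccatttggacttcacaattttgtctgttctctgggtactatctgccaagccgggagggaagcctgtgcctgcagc
Fcgr4, chr1:171018676-171018975, plus strand: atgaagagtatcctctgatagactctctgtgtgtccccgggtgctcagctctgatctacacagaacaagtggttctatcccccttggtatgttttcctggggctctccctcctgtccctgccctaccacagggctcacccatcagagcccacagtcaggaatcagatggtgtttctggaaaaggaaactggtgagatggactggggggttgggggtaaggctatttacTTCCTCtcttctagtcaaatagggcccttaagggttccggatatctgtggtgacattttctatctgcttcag
Fcgr3, chr1:171059354-171059653, minus strand: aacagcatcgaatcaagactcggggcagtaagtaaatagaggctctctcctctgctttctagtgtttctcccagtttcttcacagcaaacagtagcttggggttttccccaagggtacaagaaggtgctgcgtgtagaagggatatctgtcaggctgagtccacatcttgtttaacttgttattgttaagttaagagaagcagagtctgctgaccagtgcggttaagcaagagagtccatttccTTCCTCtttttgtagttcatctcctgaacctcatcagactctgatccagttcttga
Fcgr1, chr3:96293920-96294219, minus strand: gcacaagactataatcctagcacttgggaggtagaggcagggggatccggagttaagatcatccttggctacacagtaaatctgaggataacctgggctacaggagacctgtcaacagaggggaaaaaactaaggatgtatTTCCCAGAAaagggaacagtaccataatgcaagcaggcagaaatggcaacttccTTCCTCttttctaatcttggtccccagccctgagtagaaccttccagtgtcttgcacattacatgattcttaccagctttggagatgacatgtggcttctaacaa

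The PU box core began at position -22 from the start of Fcgr4, at -6 from that of Fcgr3 and at -55 from that of Fcgr1, and these letters were not found in the windows of Fcgr2b, Fcer1g and Fcgrt. The γ-activated site was found in the Fcgr1 window, at -109. Of 32851 promoters of the same length, 28.3% held GAGGAA and 8.3% held TTCNNNGAA on either strand.

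The libraries held between 23538963 and 41683825 counted reads, and each of the 6 genes had at least 355 reads in every library. Levels are CPM, the reads of a gene relative to the TMM-scaled library size, and the TMM factors ran from 0.918 to 1.11. Trem2 itself was counted at 327 to 415 CPM in the 8 WT libraries and at 214 to 232 CPM in the 7 Trem2-/- libraries, so its transcript was lower but present in the knockout line. Counts do not measure the protein, whose loss was checked by flow cytometry per the methods. Of the macrophage and microglia markers, 8 of 8 averaged over 1 CPM, with summed levels of 3212 to 3930 CPM in WT and 4566 to 4888 CPM in Trem2-/- libraries. Of 6 homeostatic microglia markers, 3 averaged over 1 CPM, while Sall1 was at 0 in all 15 libraries and Tmem119 stayed under 1 CPM. Of the markers of other blood cells, Ms4a1 (B cells), Fcer1a and Ms4a2 (mast cells) and Ly6g (neutrophils) were at 0 in all 15 libraries, while Cd79b (B cells) and S100a8 (neutrophils) were above 0 in all 15. Summed over each list, B cell markers reached 1.06 CPM, neutrophil markers 0.797 CPM and mast cell markers 0.313 CPM in the highest library. The macrophage markers thus moved with genotype in the direction of the Fc receptor genes; their part in the results was not tested, and in these bulk samples a change in the share of cells and a change in RNA per cell cannot be told apart. WT non-foamy replicate 3 was the shallowest library and stood apart: it was the highest of its group for all 6 Fc receptor genes. Calls for these genes that changed without it are given both ways. Values of other genes and all ratios include it.

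Per kb of annotated exon, Fcer1g and Fcgr3 were the most abundant of the 6. In CPM alone Fcgr3 was above Fcer1g (means of 965 and 635 CPM over all libraries). The per-kb scale counts every annotated exon of a gene, and which transcripts the cells used was not examined. In WT non-foamy cells the order was Fcer1g (612 ± 82.8 CPM per kb; mean ± SD, n = 4), Fcgr3 (404 ± 39.7), Fcgr4 (65.9 ± 8.09), Fcgr2b (27.1 ± 1.97), Fcgr1 (19.4 ± 1.16) and Fcgrt (5.94 ± 1.03). The order of these means was the same in the other 3 groups. Neighbours in it did not overlap between libraries of a group, except Fcer1g (763 to 900 CPM per kb) and Fcgr3 (695 to 797) in foamy Trem2-/- cells, where Fcer1g was still the higher in each of the 4 libraries. Averaged over all libraries, Fcer1g and Fcgr3 ranked at the 99.3 and 99.2 percentile of the tested genes with a length, Fcgr4 at 96.9, Fcgr2b at 91.6, Fcgr1 at 83.3 and Fcgrt at 70.8.

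**Figure D1:**
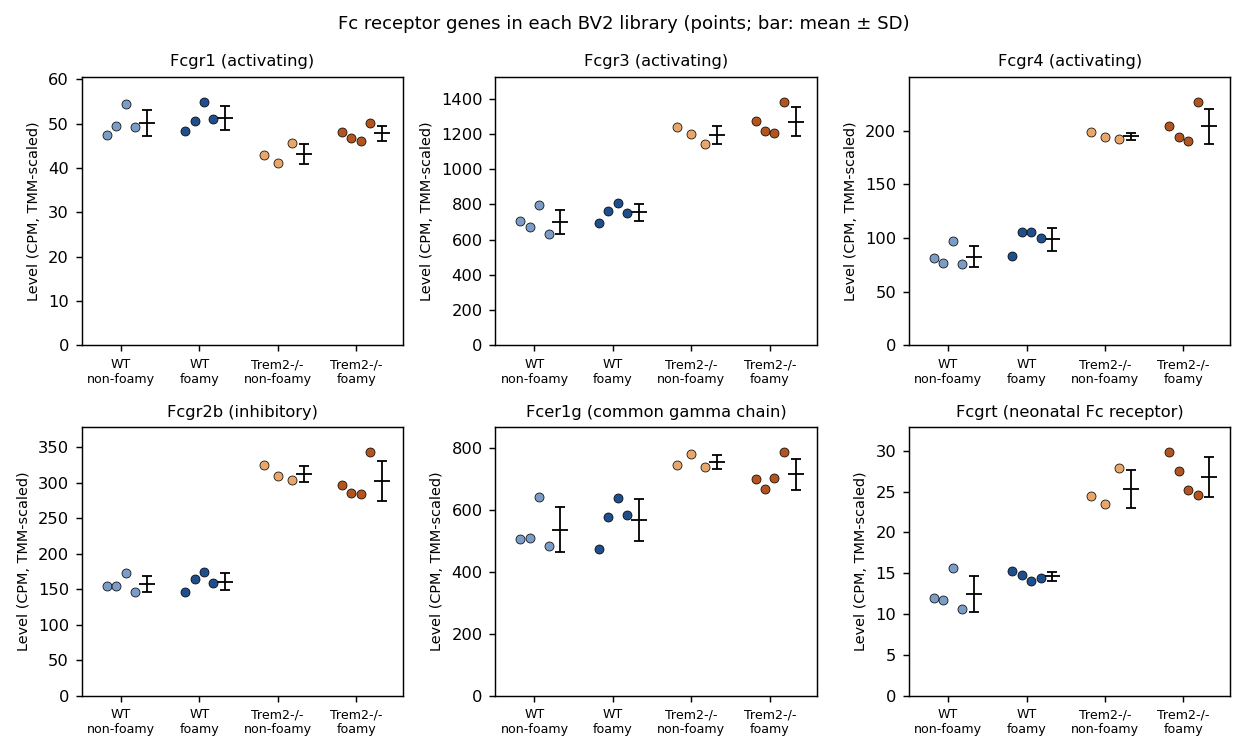
Level of each Fc receptor gene (CPM after TMM scaling, vertical axis from 0) in each library of the 4 groups; points are libraries in order of replicate number, and the bar beside them is the mean ± SD. For Fcgr3, Fcgr4, Fcgr2b, Fcer1g and Fcgrt the Trem2-/- libraries lay above the WT libraries of the same treatment, while Fcgr1 lay between 41.2 and 55.0 CPM in all 15.

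To ask whether Fc receptor expression depends on Trem2, Trem2-/- cells were compared with WT cells of the same treatment. Transcripts of the inhibitory receptor, of 2 of the 3 activating receptors, of the γ chain and of FcRn were higher in Trem2-/- cells. They were so both without and with cholesterol, by 1.26 to 2.36 times. The high-affinity receptor gene Fcgr1 was slightly lower without cholesterol and did not pass the test with it. Among non-foamy cells all 6 genes passed the test, 5 higher and 1 lower, in a comparison in which edgeR called 43.6% of all tested genes and 21.0% as higher in Trem2-/- cells. Among foamy cells 5 passed, all higher, where 30.2% of all genes were called and 14.3% were called higher. The median log2 fold change of the 6 genes was 0.88 in non-foamy and 0.81 in foamy cells, beside medians of 0.02 and 0.00 over all tested genes. Without WT non-foamy replicate 3 all 6 genes were still called in non-foamy cells, Fcgr1 at -0.17 (adjusted p = 0.0400) and the other 5 at 0.59 to 1.32. For the 5 genes that were higher, every Trem2-/- library lay above every WT library in both comparisons, which held for 22.6% of tested genes in non-foamy and 13.8% in foamy cells.

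Among the activating receptors, Fcgr4 showed the largest change. FcγRIV is a receptor of intermediate affinity found on monocytes, macrophages and neutrophils. Fcgr4 was at 81.4, 76.3, 97.6 and 75.9 CPM in the WT non-foamy libraries (replicates 1 to 4) and at 83.0, 106, 106 and 100.45 CPM in the WT foamy libraries. In Trem2-/- cells it was at 198, 194 and 192 CPM in non-foamy and at 205, 194, 191 and 227 CPM in foamy libraries. The lowest Trem2-/- library was thus well above the highest WT library, and the 3 non-foamy Trem2-/- libraries lay within a few CPM of each other. Relative to WT cells its log2 fold change was 1.24 (SE 0.09, adjusted p = 2.77e-10, edgeR) in non-foamy cells and 1.05 (SE 0.08, adjusted p = 4.43e-09) in foamy cells.

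Fcgr3 encodes the low-affinity activating receptor and was the most strongly expressed of the ligand-binding chains. Its levels were 704, 672, 794 and 632 CPM in WT non-foamy and 697, 763, 810.0 and 749 CPM in WT foamy libraries. In Trem2-/- libraries they were 1239, 1199 and 1143 CPM without cholesterol and 1274, 1214, 1206 and 1384 CPM with it. The groups of the 2 genotypes did not overlap. The log2 fold change was 0.77 (SE 0.08, adjusted p = 3.21e-08, edgeR) in non-foamy and 0.75 (SE 0.07, adjusted p = 5.69e-08) in foamy cells.

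Fcgr1, the receptor that binds monomeric IgG with high affinity, went the other way. It was at 47.5, 49.6, 54.5 and 49.2 CPM in WT non-foamy and at 48.4, 50.7, 55.0 and 51.2 CPM in WT foamy libraries. In Trem2-/- cells it was at 42.9, 41.2 and 45.7 CPM in non-foamy and at 48.1, 46.9, 46.1 and 50.1 CPM in foamy libraries. The non-foamy genotypes did not overlap and the foamy genotypes did. Fcgr1 fell by 0.21 on the log2 scale in non-foamy cells (SE 0.07, adjusted p = 0.0143, edgeR), a call that was lost without Trem2-/- non-foamy replicate 1 (adjusted p = 0.0501) or replicate 2 (adjusted p = 0.0795). In foamy cells its log2 fold change was -0.10 (SE 0.06, adjusted p = 0.236) and did not pass the test, but with scaling by total counts alone it was -0.23 (adjusted p = 0.00303), a scaling under which the median of all genes moved by -0.13 in this comparison and by -0.14 in non-foamy cells.

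The inhibitory receptor gene Fcgr2b was at 154, 155, 173 and 146 CPM in WT non-foamy and at 146, 165, 174 and 159 CPM in WT foamy libraries. It was at 325, 309 and 304 CPM in Trem2-/- non-foamy and at 296, 286, 285 and 344 CPM in Trem2-/- foamy libraries. The 2 genotypes did not overlap, and Trem2-/- cells held 1.99 times the WT level without and 1.88 times with cholesterol. The log2 fold change was 0.99 (SE 0.08, adjusted p = 5.58e-10, edgeR) in non-foamy and 0.91 (SE 0.07, adjusted p = 2.86e-09) in foamy cells.

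Fcer1g, which encodes the chain that the activating receptors share, rose less than Fcgr4 and Fcgr3. It was at 505, 509, 642 and 483 CPM in WT non-foamy and at 475, 576, 639 and 582 CPM in WT foamy libraries. It was at 745, 779 and 738 CPM in Trem2-/- non-foamy and at 699.8, 667, 704 and 787 CPM in Trem2-/- foamy libraries. The genotypes did not overlap, although the highest WT foamy library (639 CPM) came close to the lowest Trem2-/- foamy library (667 CPM). The log2 fold change was 0.50 (SE 0.09, adjusted p = 0.000166, edgeR) in non-foamy and 0.33 (SE 0.09, adjusted p = 0.00613) in foamy cells. Without WT non-foamy replicate 3 the first was 0.59 (adjusted p = 1.68e-06). Fcer1g is short, with 0.874 kb of exon, and the 1565 tested genes under 1 kb had a median log2 fold change of 0.25 in the non-foamy and 0.19 in the foamy comparison. When each library's trend on exonic length was removed, the log2 fold change of Fcer1g was 0.40 (adjusted p = 8.83e-06) in non-foamy and 0.21 (adjusted p = 0.00593) in foamy cells, and the same 6 and 5 Fc receptor genes were called in the 2 comparisons.

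Fcgrt, the FcRn heavy chain, was the least abundant of the 6, with 355 to 1074 reads per library. It was at 11.96, 11.7, 15.6 and 10.6 CPM in WT non-foamy and at 15.2, 14.8, 14.0 and 14.4 CPM in WT foamy libraries. It was at 24.4, 23.5 and 27.9 CPM in Trem2-/- non-foamy and at 29.9, 27.6, 25.2 and 24.5 CPM in Trem2-/- foamy libraries. The log2 fold change was 1.03 (SE 0.11, adjusted p = 9.24e-08, edgeR) in non-foamy and 0.87 (SE 0.10, adjusted p = 9.3e-07) in foamy cells, with no overlap between genotypes. B2m, the light chain that FcRn needs to leave the endoplasmic reticulum, moved in the same direction, from 1827 ± 249 CPM (mean ± SD, n = 4) in WT to 3053 ± 116 CPM (n = 3) in Trem2-/- non-foamy cells, which on the log2 scale was 0.74 (SE 0.10, adjusted p = 3.18e-06). In foamy cells B2m was at 1979 ± 268 CPM in WT and 2852 ± 234 CPM in Trem2-/- cells (n = 4 each), which was 0.53 (SE 0.10, adjusted p = 0.000197).

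**Figure D2:**
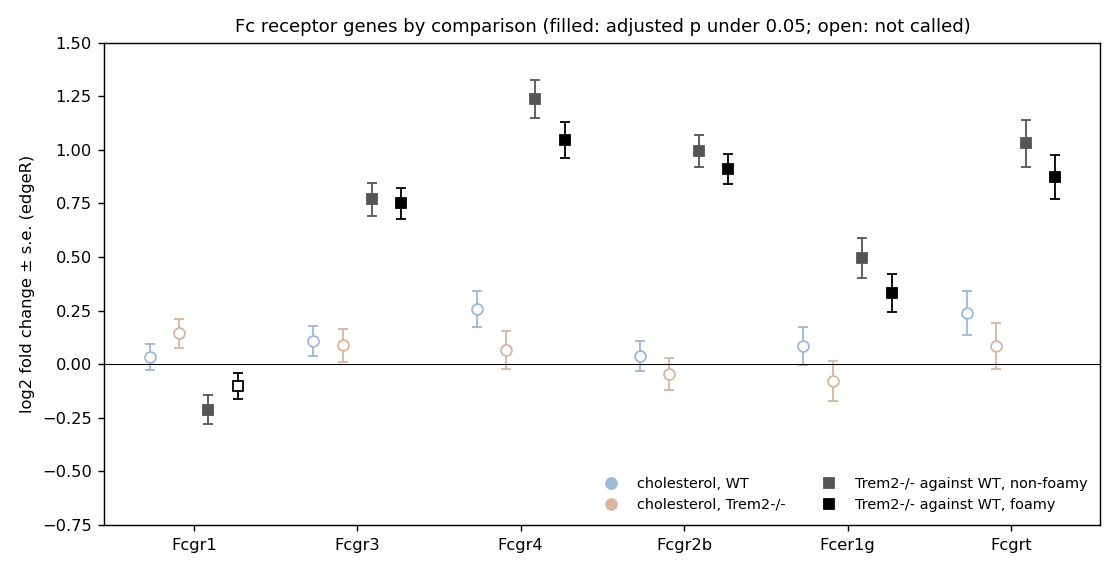
log2 fold change ± SE from edgeR (vertical axis) of the 6 Fc receptor genes in 4 comparisons; circles are cholesterol against media alone in each genotype, squares are Trem2-/- against WT, and filled symbols had an adjusted p under 0.05. The squares of 5 genes stand at 0.33 to 1.24 and those of Fcgr1 at -0.21 and -0.10, while the circles lie between -0.08 and 0.26 and none is filled.

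To ask whether foamy formation changes Fc receptor expression, cholesterol-loaded cells were compared with cells in media alone. No Fc receptor gene was called in either genotype. In WT cells, where edgeR called 2.80% of tested genes, the log2 fold changes of the 6 genes ran from 0.03 to 0.26, and 2 of 6 had an unadjusted p under 0.05. Fcgr4 had a log2 fold change of 0.26 (SE 0.08, unadjusted p = 0.00588, adjusted p = 0.104) and Fcgrt 0.24 (SE 0.10, unadjusted p = 0.0318, adjusted p = 0.245). The Fcgr4 levels of the 2 WT groups, given above, overlapped: WT foamy replicate 1 lay within the non-foamy range, and non-foamy replicate 3 lay above it. Without non-foamy replicate 3, Fcgr4 passed the test at 0.34 (adjusted p = 0.0119) and so did Fcgrt at 0.36 (adjusted p = 0.0385). Without WT foamy replicate 1, Fcgr4 passed at 0.33 (adjusted p = 0.0251), and it also passed with total counts alone (0.25, adjusted p = 0.0342), with no filter on low counts (0.26, adjusted p = 0.0151) and with the length trend removed (0.29, adjusted p = 0.0116). The DESeq2 Wald test called none of the 6.

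In Trem2-/- cells, where 0.140% of tested genes were called, the log2 fold changes ran from -0.08 to 0.14, and 1 of 6 had an unadjusted p under 0.05. This was Fcgr1, at 0.14 (SE 0.07, unadjusted p = 0.0466, adjusted p = 0.774), whose foamy Trem2-/- libraries (46.1 to 50.1 CPM) lay just above the non-foamy ones (41.2 to 45.7 CPM). The difference between the genotypes in their response to cholesterol, for which 3.64% of tested genes were called, passed for none of the 6 genes in edgeR and had an unadjusted p under 0.05 for none; DESeq2 called none. It was largest for Fcgr4, at -0.19 (SE 0.12, adjusted p = 0.46), and smallest for Fcgr3, at -0.02 (SE 0.11, adjusted p = 0.954). Among the pathway lists described next, cholesterol called 4 of 18 inhibitors (all higher) and 1 of 29 kinases and adaptors (Src, higher) in WT cells. It also called 3 of 37 genes of the actin cup list there (1 higher, 2 lower), beside 2.80% of all tested genes. In Trem2-/- cells it called none of these, beside 0.140%.

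The genes did not change in proportion to each other. On the per-kb scale, the ratio of Fcgr2b to the sum of Fcgr1, Fcgr3 and Fcgr4 was 0.0555 ± 0.00172 without and 0.0521 ± 0.000427 with cholesterol in WT cells (mean ± SD, n = 4 each). In Trem2-/- cells it was 0.0628 ± 0.000673 without (n = 3) and 0.0572 ± 0.00157 with cholesterol (n = 4). On this scale inhibitory receptor transcript was a few percent of activating receptor transcript in every group. That share rests on the annotated exon lengths (5790 bases for Fcgr2b, 1736 for Fcgr3), and which transcripts the cells used was not examined. In CPM, WT non-foamy cells had 157 for Fcgr2b, beside 701 for Fcgr3, 82.8 for Fcgr4 and 50.2 for Fcgr1. The ratio was higher in Trem2-/- than in WT libraries of the same treatment and lower in foamy than in non-foamy libraries of the same genotype, with no overlap in any of the 4 comparisons. The exact permutation p (two-sided) was 0.0286 for WT foamy against WT non-foamy and for the foamy genotypes, and 0.0571 for the 2 comparisons that involve the 3 non-foamy Trem2-/- libraries, in each case the smallest p that the design allows. Adjusted over the 16 ratio tests these were 0.0653; with these group sizes no ratio could reach an adjusted p below 0.0571, so missing the threshold of 0.05 says nothing about the ratios. Reads that Fcgr2b and Fcgr3 share enter both sides of this ratio, and no length trend was removed from any ratio.

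The ratio of the γ chain transcript to the sum of the 3 receptor chains that use it was 1.25 ± 0.0563 in WT non-foamy and 1.22 ± 0.071 in WT foamy cells (n = 4 each), and 1.005 ± 0.0394 (n = 3) in non-foamy and 0.896 ± 0.0269 (n = 4) in foamy Trem2-/- cells. The groups of the 2 genotypes did not overlap (exact permutation p = 0.0571 in non-foamy and 0.0286 in foamy cells, adjusted p = 0.0653 for both). On the per-kb scale, receptor chain transcript exceeded γ chain transcript in each foamy Trem2-/- library, where the ratio ran from 0.874 to 0.931. It also did so in Trem2-/- non-foamy replicate 1 (0.960), but not in replicates 2 and 3 (1.03 and 1.02). In no WT library did it do so (1.12 to 1.32). The side of 1 on which the ratio lies rests on the annotated exon lengths, so it does not show which transcript was in excess. The ratio of Fcgr4 to Fcgr1 was 3.39 ± 0.259 and 3.96 ± 0.322 in non-foamy and foamy WT cells and 9.31 ± 0.558 and 8.79 ± 0.392 in the Trem2-/- cells, again with no overlap between genotypes (exact permutation p = 0.0571 and 0.0286, adjusted p = 0.0653 for both). This ratio sets the gene with the largest increase over the gene that was lower. Its separation follows from the levels given above and is no further evidence.

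**Figure D3:**
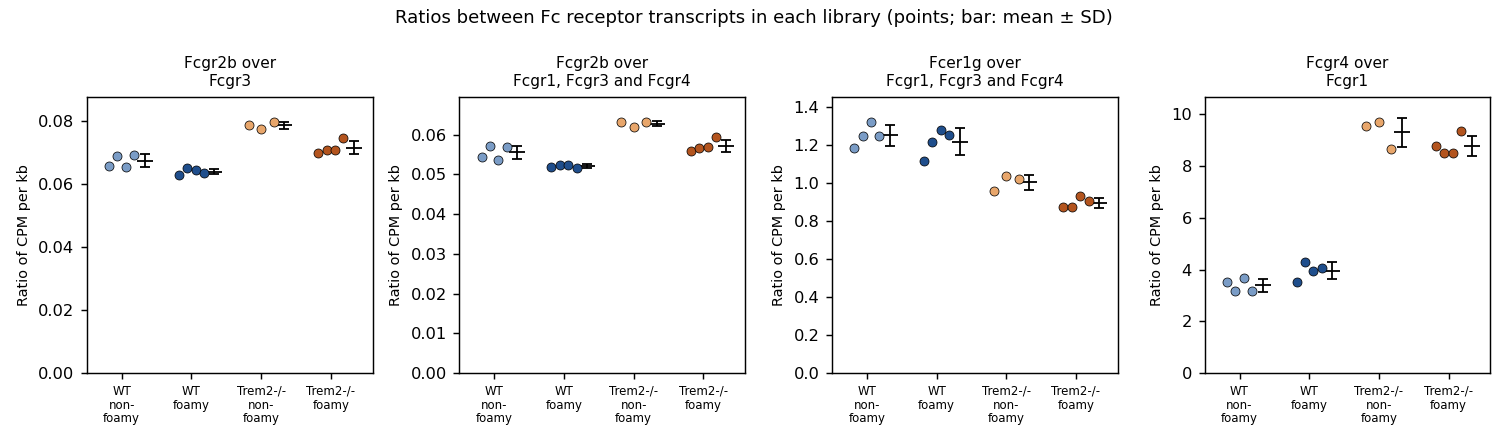
Ratios of length-scaled levels (CPM per kb over CPM per kb, vertical axes from 0) in each library of the 4 groups; points are libraries, and the bar beside them is the mean ± SD. Both Fcgr2b ratios and the Fcgr4 to Fcgr1 ratio are higher, and the Fcer1g ratio is lower, in Trem2-/- libraries than in WT libraries of the same treatment.

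Genes downstream of the receptors are read against the share called over all tested genes, 43.6% in the non-foamy and 30.2% in the foamy comparison. Of 29 tested kinases and adaptors of Fc receptor signalling, 10 were higher and 5 lower in non-foamy Trem2-/- cells, and 6 higher and 4 lower in foamy Trem2-/- cells, with median log2 fold changes of -0.01 and -0.09. The called shares, 51.7% and 34.5%, were near those over all genes and are no result about the list. Grb2, an adaptor that links receptor kinases to Ras, rose from 144 ± 6.04 CPM (n = 4) to 267 ± 12.6 CPM (n = 3) in non-foamy cells, by 0.89 on the log2 scale (SE 0.07, adjusted p = 4.42e-10, edgeR), and by 0.49 (SE 0.06, adjusted p = 2.54e-06) in foamy cells. Lcp2, which encodes the SLP-76 scaffold downstream of Syk, had log2 fold changes of -0.91 (SE 0.10, adjusted p = 1.17e-07) and -0.70 (SE 0.09, adjusted p = 3.58e-06). The kinase gene Src was higher by 0.83 (SE 0.14, adjusted p = 4.74e-05) in non-foamy cells, while its value in foamy cells was 0.03 (SE 0.13, adjusted p = 0.872). Prkcd, which encodes protein kinase C delta, was higher by 0.68 (SE 0.08, adjusted p = 2.67e-07) in non-foamy and by 0.37 (SE 0.07, adjusted p = 0.000503) in foamy cells. Other genes of the Src family did not share the increase of Src. Lyn was lower in non-foamy cells (-0.36, adjusted p = 5.08e-05, edgeR) and not called in foamy cells (-0.11, adjusted p = 0.131). Fyn was called in neither comparison (0.06 and -0.09). Syk was called higher in both (0.48 and 0.24). Of the Src-family kinases, Fgr and Yes1 were too low to be tested, with 50 and 2 reads over all 15 libraries.

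Of 18 tested inhibitors of the pathway, 9 were higher and 3 lower in non-foamy and 7 higher and 3 lower in foamy Trem2-/- cells, with medians of 0.20 and 0.03. That is 66.7% and 55.6% called, beside 43.6% and 30.2% of all tested genes; the difference was not tested. The receptor genes Pirb and Cd300a, whose products carry ITIM motifs as FcγRIIB does, were among those higher. The phosphatase genes Ptpn6 (-0.51 and -0.43) and Ptpn11 (-0.36 and -0.31) were among those called lower in non-foamy and foamy cells. Inpp5d, which encodes SHIP1, was not called (0.14 and -0.14). Cd300a rose from 146 ± 8.12 to 275 ± 6.82 CPM in non-foamy cells, by 0.91 on the log2 scale (SE 0.06, adjusted p = 1.48e-10, edgeR), and by 0.71 (SE 0.06, adjusted p = 6.91e-09) in foamy cells. Pirb rose by 1.12 (SE 0.09, adjusted p = 9.64e-10) and by 0.49 (SE 0.08, adjusted p = 8.4e-05), although paired immunoglobulin-like receptors are similar in sequence and their counts can be split by the counting. Cblb, a ubiquitin ligase that limits tyrosine kinase signals, rose by 1.02 (SE 0.16, adjusted p = 2e-05) and by 0.76 (SE 0.15, adjusted p = 0.000499). Dok2, an adaptor that recruits RasGAP, had log2 fold changes of -1.21 (SE 0.12, adjusted p = 2.7e-08) and -0.74 (SE 0.11, adjusted p = 1.64e-05).

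The list for the actin cup around an IgG-coated particle held 37 tested genes, among them the phospholipase gene Pla2g4a. Of these, 10 were higher and 10 lower in non-foamy and 4 higher and 9 lower in foamy Trem2-/- cells, with medians of 0.00 and -0.10. The called shares, 54.1% and 35.1%, were near the 43.6% and 30.2% of all tested genes. The 3 called genes with the largest changes were all lower. In non-foamy cells the third, Elmo1 (-0.809), was nearly matched by Myo1f, which was called higher (0.807). Marcksl1, which encodes an actin-binding substrate of protein kinase C, fell from 9.89 ± 0.922 CPM (n = 4) to 2.06 ± 0.155 CPM (n = 3), a log2 fold change of -2.26 (SE 0.18, adjusted p = 1.27e-09, edgeR), beside -2.08 (SE 0.17, adjusted p = 5.16e-09) in foamy cells. Pla2g4a, which encodes cytosolic phospholipase A2, had log2 fold changes of -1.07 (SE 0.07, adjusted p = 1.76e-11) and -0.56 (SE 0.06, adjusted p = 2.17e-07). Elmo1, a partner of Dock proteins in activating Rac, had log2 fold changes of -0.81 (SE 0.08, adjusted p = 1.7e-08) and -0.65 (SE 0.07, adjusted p = 3.36e-07).

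Fcer1g also serves other receptors, and 9 of the 13 genes listed as such and found in the tables were tested. Of these, 3 were higher and 1 lower in non-foamy and 5 were higher in foamy Trem2-/- cells, with medians of 0.52 and 0.36. The called shares were 44.4% and 55.6%, beside 43.6% and 30.2% of all tested genes, over 9 genes. Whether each listed product pairs with the γ chain, those of Clec4a1 and Clec4a3 among them, was not examined. The C-type lectin receptor gene Clec4a3 rose from 22.5 ± 2.04 to 41.4 ± 0.886 CPM in non-foamy cells, by 0.88 (SE 0.08, adjusted p = 1.3e-08, edgeR), and by 0.57 (SE 0.08, adjusted p = 6.26e-06) in foamy cells. Clec4a1 rose by 2.02 (SE 0.29, adjusted p = 5.34e-06) and by 1.34 (SE 0.26, adjusted p = 0.000435) from a mean of under 1 CPM in WT cells, and Clec4a genes are similar in sequence, so their counts can be split. Clec4n, which encodes dectin-2, rose by 0.54 (SE 0.15, adjusted p = 0.00656) and by 0.57 (SE 0.14, adjusted p = 0.00412). Tarm1 was called in foamy cells, at 0.92 (SE 0.29, adjusted p = 0.0176), and had 0.21 (SE 0.33, adjusted p = 0.634) in non-foamy cells. Tyrobp, which encodes the DAP12 adaptor that resembles the γ chain and that Trem2 itself uses, rose from 1235 ± 232 to 1740 ± 86.3 CPM in non-foamy cells, by 0.49 (SE 0.11, adjusted p = 0.00052), and by 0.46 (SE 0.10, adjusted p = 0.00108) in foamy cells. Tyrobp with 0.667 kb and B2m with 0.86 kb of exon are short genes, as Fcer1g is, and the part of length in their values was not tested.

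Of 14 other Fc-binding genes, 5 were tested and the same 1 was called in both genotype comparisons. That is 20% called, beside 43.6% and 30.2% of all tested genes, over 5 genes. The called gene was Fcrla, an Fc receptor-like gene known from B cells that lies beside Fcgr2b. Fcrla had 10 to 40 reads in WT non-foamy and 60 to 68 reads in Trem2-/- non-foamy libraries. Its log2 fold change was 1.65 (SE 0.31, adjusted p = 0.000153, edgeR) in non-foamy and 1.06 (SE 0.29, adjusted p = 0.00751) in foamy cells, where the genotypes overlapped (0.636 to 0.973 CPM in WT and 0.928 to 2.15 CPM in Trem2-/- libraries). The high-affinity IgE receptor chains Fcer1a and Ms4a2 had no read in any library, and neither did Fcmr, Fcamr, Fcrl6 and Pigr. A count of 0 allows up to 3 reads per library, for counting error only.

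**Figure D4:**
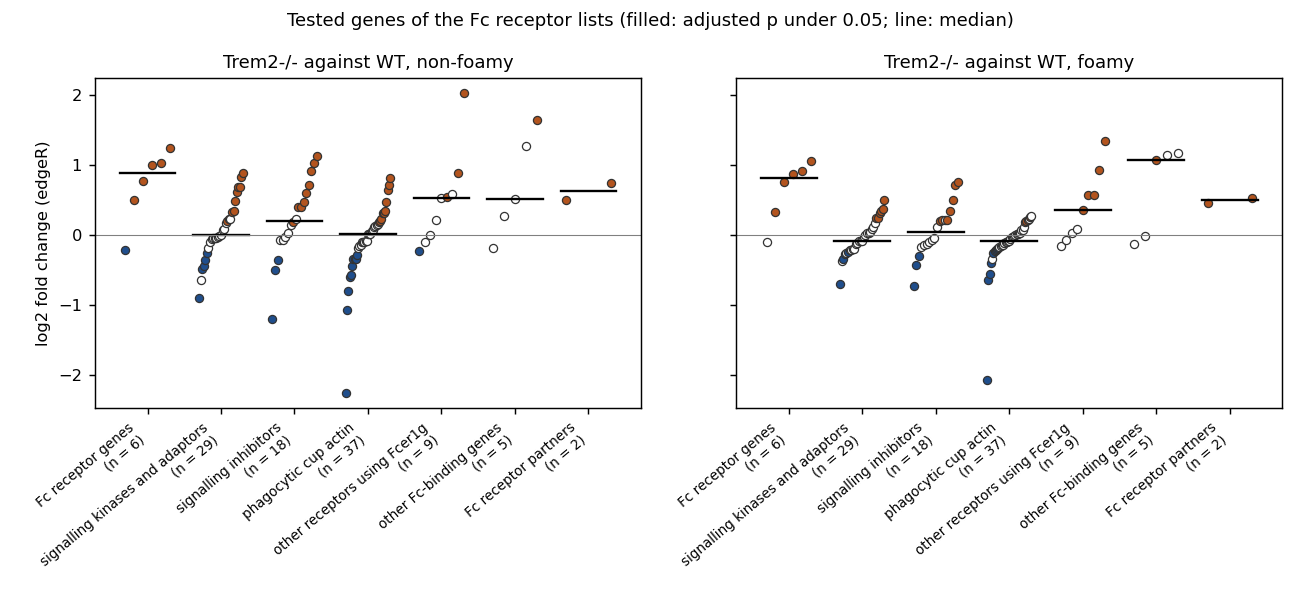
log2 fold change from edgeR (vertical axis) of Trem2-/- against WT for each tested gene of the Fc receptor lists, in non-foamy (left) and foamy cells (right); filled points had an adjusted p under 0.05, lines are medians, and n is the number of tested genes. The Fc receptor genes sit mostly at 0.33 to 1.24, the kinases, inhibitors and actin genes lie on both sides of 0, and the partners are Tyrobp and B2m.

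Around the chromosome 1 group, of 28 other tested genes within 250 kb, 2 were called higher and 4 lower in non-foamy and 2 higher and 3 lower in foamy Trem2-/- cells, with median log2 fold changes of 0.12 and -0.02. The called shares were 21.4% and 17.9%, beside 43.6% and 30.2% of all tested genes. Besides Fcrla, the nearest neighbours were Gm10522, a long non-coding RNA between Fcgr2b and Fcgr4 with 0 to 4 reads in WT non-foamy, 10 to 20 in Trem2-/- non-foamy, 0 to 14 in WT foamy and 2 to 20 in Trem2-/- foamy libraries, and Cfap126, 49.0 kb beyond Fcgr3, at 0.21 (adjusted p = 0.205, edgeR) and -0.15 (adjusted p = 0.396). Beside Fcer1g, Apoa2 at 3.19 kb was at 0.18 (adjusted p = 0.583) and -0.25 (adjusted p = 0.415). Around Fcgr1, 3 of 14 tested genes were higher and 2 lower in each comparison (35.7% called); the nearest was the histone gene H4c14, at 1.75 (adjusted p = 0.000382) and 1.14 (adjusted p = 0.0139), and on the other side Gm21960, at 0.14 (adjusted p = 0.841) and 0.73 (adjusted p = 0.25). Around Fcgrt, 7 of 25 were higher and 5 lower in non-foamy and 4 higher and 2 lower in foamy cells (48.0% and 24.0% called); its neighbour Nosip was at -0.24 (adjusted p = 0.0519) and -0.11 (adjusted p = 0.386).

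**Figure D5:**
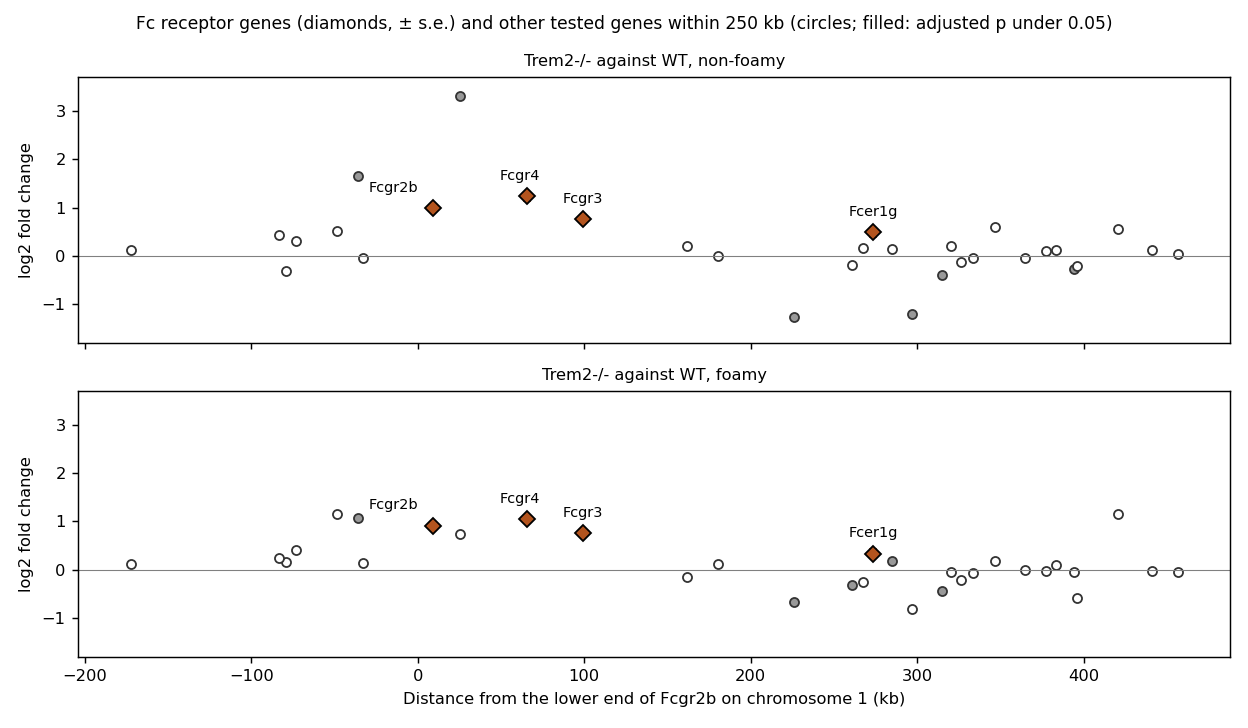
log2 fold change of Trem2-/- against WT (vertical axes, edgeR) by distance in kb from the lower end of Fcgr2b on chromosome 1 (horizontal axis), in non-foamy (top) and foamy cells (bottom). Diamonds are Fcgr2b, Fcgr4, Fcgr3 and Fcer1g with SE, all above 0; circles are the 28 other tested genes within 250 kb, filled where called, of which 2 were called higher in each panel.

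Over 9642 genes averaging 5 CPM or more, those whose level followed each Fc receptor gene most closely over the 15 libraries were named by Pearson correlation of log2 CPM. These values are descriptions, since the libraries share groups and a gene that differs between the genotypes will follow any other that does. Fcgr4 and Fcgr3 were followed by the same pair, Rcbtb2 (r = 0.997 with Fcgr4 and 0.995 with Fcgr3) and Creg1 (r = 0.996 and 0.995), then by Itm2b for Fcgr4 (r = 0.996) and Snhg1 for Fcgr3 (r = 0.992). Fcgr2b was followed by Sat1 (r = 0.994), Ctsl (r = 0.993) and Fabp4 (r = 0.992). Fcgrt was followed by Tubb2a (r = 0.984), Pik3ip1 (r = 0.983) and Apoe (r = 0.975), and Fcgr1 by Lypla1 (r = 0.905) and Gosr2 (r = 0.893). Fcer1g was followed by 3 ribosomal protein genes, Rpl6 (r = 0.994), Rpl13a (r = 0.992) and Rpl3 (r = 0.991).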

How the data were processed

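RNA of 15 BV2 libraries was sequenced on the NovaSeq platform from TruSeq RNA libraries. The authors deposited raw read counts per gene, 1 table of whole numbers per library, without normalization. The CHURP pipeline had been used upstream: Trimmomatic for trimming, HISAT2 for alignment to GRCm38 (mm10 in the submitters' processing notes) and featureCounts for counting; how strand was treated is not given in the sources used here. Replicates were not pooled.

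Libraries were grouped by the genotype and treatment in their labels. Genes were kept by filterByExpr (minimum count 10), which left 14237 genes with 99.97% of all reads. Library sizes were scaled with TMM, all 15 libraries were fitted with 1 mean per group by glmQLFit and glmQLFTest of edgeR 4.0.16 (R 4.3.3), and p-values were adjusted by Benjamini-Hochberg over all tested genes for each of 5 comparisons. A gene was called at an adjusted p under 0.05. The SE is the log2 fold change divided by the square root of F. Ratios were compared with exact permutation tests (scipy). The authors' own test was DESeq2; here DESeq2 1.42.0 was an alternative, as were other scalings and filters, a replicate block and leaving out libraries. Removing each library's trend on exonic length was added after seeing the data. Replicates differed by more than counting noise (chi-square per gene of 5.95 to 45.4). The procedure was tested on simulated data.

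The members, lists and tests were chosen with earlier results of these data known. Named genes were the 6 members, Trem2, B2m and Tyrobp, the 3 called genes of each list with the largest absolute log2 fold change in each genotype comparison, direct neighbours, and per member the 3 genes with the highest r. The low read counts of untested list genes and of Gm10522 and Gm38204 were added after their values were seen. So were Ptpn6, Ptpn11, Inpp5d, Lyn, Fyn, Syk and Myo1f, which stand outside these rules. Lengths, positions and shared 50-base stretches came from GENCODE M21, promoters from RefSeq. No protein sequences were used here. Some genes that these rules name are not reported here.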

Additional observations from a re-analysis of the deposited data

Results flagged for a closer look

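In 75 groups of 4 libraries (25 named genes), 7 had 1 library far from the others by Dixon's criterion at the 95% level, where chance flags about 1 group in 20. WT non-foamy replicate 3 accounted for 5 of them. In it Fcer1g was at 642 CPM, where the other 3 libraries of the group were at 483 to 509, B2m at 2199.5 CPM against 1687 to 1714, Tyrobp at 1582 CPM against 1099 to 1140, and Cd300a at 159 CPM against 141 to 144, while Prkcd was low, at 68.6 CPM against 85.7 to 87.3. In the same library, tested genes with under 1 kb of exon had a median log2 deviation of 0.13 from their mean over all libraries, where the other WT non-foamy libraries had -0.19 to -0.08; the part of transcript length in the 5 flags was not tested. Trem2 was at 218 CPM in Trem2-/- foamy replicate 3, where the other 3 were at 226 to 227, and Clec4n was at 13.2 CPM in Trem2-/- foamy replicate 4, where the others were at 11.8 to 11.99.

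Of 100 tested list genes, 11 were called for a difference between the genotypes in their response to cholesterol, beside 3.64% of all tested genes. They include 4 of the genes that the report named by rule, by the test of the difference itself (edgeR, 4 WT libraries per group against 3 and 4 Trem2-/- libraries). The difference of the log2 fold changes, Trem2-/- minus WT, was -0.79 for Src (adjusted p = 0.0235), -0.63 for Pirb (adjusted p = 0.00496), -0.39 for Grb2 (adjusted p = 0.019) and 0.51 for Pla2g4a (adjusted p = 0.00153). Src rose by 0.51 (adjusted p = 0.0364) and Pirb by 0.35 (adjusted p = 0.0243) in WT cells, where Grb2 was at 0.22 (adjusted p = 0.0545), and Pla2g4a fell by 0.30 there (adjusted p = 0.0061). The Trem2-/- responses of these genes were -0.28 for Src, -0.28 for Pirb, -0.17 for Grb2 and 0.22 for Pla2g4a, with adjusted p of 0.443 or more.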

How the results depend on the processing

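Of 504 values of the 6 genes under the alternatives, 487 kept their direction and their side of the threshold. The 5 increases in each genotype comparison did so under every alternative run. For cholesterol in WT cells no gene was called, but 1 was called with total counts alone, with no filter and with the length trend removed, and 0 to 2 when 1 library was left out, 2 of them without WT non-foamy replicate 3; the cause was not tested. Leaving out 1 library at a time gave a log2 fold change in WT cells of -0.0093 to 0.073 for Fcgr1 and -0.0089 to 0.086 for Fcgr2b (both lowest without WT foamy replicate 3), and for Fcgr3 a difference of responses of -0.084 to 0.028; none of these passed the test.

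Labels number the libraries of each group. Deviations of same-numbered libraries had an r of -0.10 to 0.14 over 21 pairs, beside -0.23 to 0.17 over 63 other pairs. Such values cannot show that same-numbered libraries shared no culture or batch, which the sources used here do not give. With the number as a replicate block the counts of called Fc receptor genes were 0 and 0 for cholesterol, 6 and 5 for genotype and 0 for the difference, and no call changed. Over all tested genes DESeq2 called 881 where edgeR called 399 for cholesterol in WT cells, 56 against 20 in Trem2-/- cells and 985 against 518 for the difference of responses. Fcgrt, with 355 to 1074 reads per library, is the gene that depth limits most.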
